A study of Mus musculus with 6 samples.

Results

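The collagen genes are the 41 of 24167 genes in the count table whose symbol has the form of a collagen alpha chain (Col, a type number, a and a chain number). They were sorted by type number into 11 fibrillar chains (types I, II, III, V, XI, XXIV and XXVII), 8 basement membrane chains (types IV, XV and XVIII) and 22 other chains. The rule reads gene symbols only. The libraries are dissected liver metastases of 4T1 cells, an established mouse triple-negative mammary carcinoma line, grown in female BALB/c mice aged 6-8 weeks. In the shSCR group the injected cells carried a scrambled short hairpin, and in the shZdhhc17 group a hairpin against Zdhhc17, the gene of a palmitoyltransferase. Both hairpins came from a lentiviral vector with puromycin selection, 500000 cells were injected hydrodynamically into the tail vein, and the metastases were taken on day 10 in 3 libraries per group. Host cells carry no hairpin, so stromal and hepatic RNA in these pieces comes from unmodified cells. The labels give 3 samples per group and do not state that each came from a separate mouse, so the p-values here reflect only how these libraries vary, which may be partly technical. 4T1 derives from the BALB/c strain, so the tumours grew in matched hosts.

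Collagens are proteins of 3 alpha chains wound into a triple helix, and most of them are secreted. Fibrillar types, chiefly I and III, form the tensile fibres that activated hepatic stellate cells and fibroblasts lay down around tumours and in scarred liver. Type IV builds the sheet-like network of basement membranes, types XV and XVIII (the multiplexins) are proteoglycan collagens of basement membrane zones that release the fragments restin and endostatin, and the remaining types coat fibrils, form microfibrils or anchoring fibrils, or sit in the cell membrane.

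Counts per library summed to between 15832837 and 19186615, with 21728 to 22269 genes detected. Levels are given as CPM, gene counts scaled to a common library size with TMM factors. Zdhhc17 itself, measured over tumour and host cells together, stood at 33.7, 32.4 and 34.1 CPM in shSCR replicates 1, 2 and 3 and at 25.8, 27.7 and 25.9 CPM in the shZdhhc17 replicates, lower in each shZdhhc17 library (log2 fold change -0.33 ± 0.11 SE, edgeR adjusted p = 0.383). The control library shSCR replicate 3 stood apart: 12 hepatocyte markers summed to 25066 CPM there and to between 47169.9 and 72538 CPM in the other libraries. Collagen values that move by over 1.5 times without it are given both ways or as a range over the left-out libraries. None of the 12 hepatocyte and 11 carcinoma epithelial markers was at 0 in any library.

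Most collagen transcripts stood at a lower mean level in the shZdhhc17 metastases, among them 10 of the 11 fibrillar chains, while the abundant type IV chains had nearly equal means and Col18a1 stood higher. No collagen gene passed the threshold, a Benjamini-Hochberg adjusted p under 0.05 over all tested genes in edgeR's quasi-likelihood test. The test called 0 of 15567 genes (0.0%) and limma voom 0, while DESeq2 called 210 genes, Col15a1 being the collagen among them. Of the 35 collagen genes with enough counts to test, 25 had a negative log2 fold change of shZdhhc17 against shSCR (71.4%), against 49.7% of all tested genes. The median was -0.41 for the tested collagens and 0.0017 for all tested genes. Without shSCR replicate 3 the collagen median was -0.24, and with the mean level of hepatocyte markers as a covariate -0.27. An unadjusted p under 0.05 was reached by 11 of the 35 tested collagens, 6 lower and 5 higher in shZdhhc17, where the share over all tested genes was 11.4% (6.71% lower and 4.72% higher). No library of one group lay within the other group's range for 11 of the 35, 7 lower and 4 higher, where 17.1% of all tested genes were so separated (9.62% lower and 7.48% higher). These counts cover the tested collagens and not all 41. Both counts of higher genes include Col4a4, which passed the filter on low counts through the shZdhhc17 libraries alone. With library totals in place of TMM the median of all genes shifted to -0.13, so fold changes under that scaling are to be read relative to this value.

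**Figure D1:**
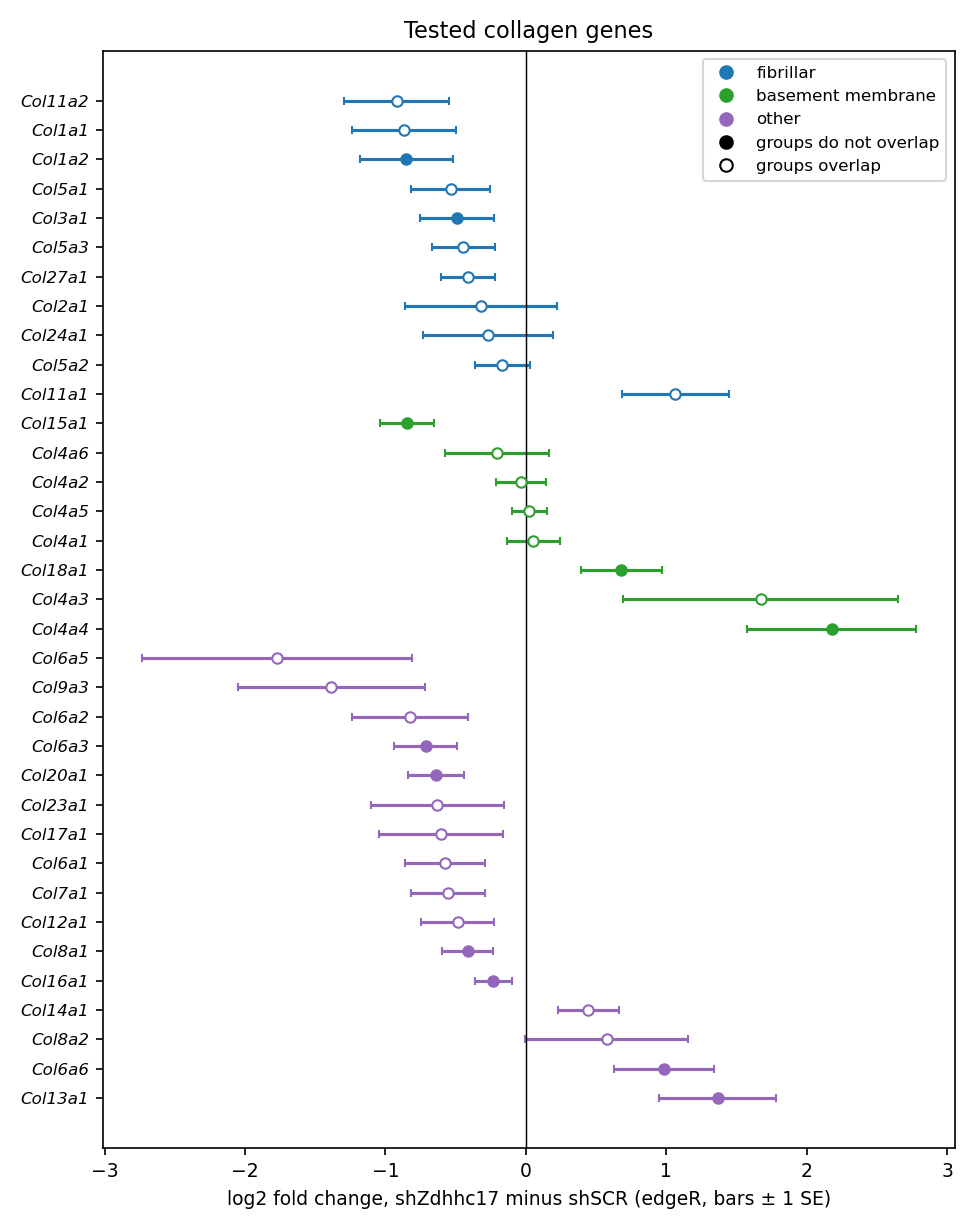
Log2 fold change of shZdhhc17 against shSCR (x axis, edgeR, bars ± 1 SE) for the 35 tested collagen genes (y axis), coloured by class; filled points mark genes whose 3 shZdhhc17 values do not overlap the 3 shSCR values. In the fibrillar class 10 of 11 points lie left of 0, and in the basement membrane class Col15a1 and Col18a1 lie on opposite sides.

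The major fibrillar collagens formed the bulk of the collagen RNA and had lower means in shZdhhc17. Col3a1 (ENSMUSG00000026043.19), the single chain of type III, stood at 2149, 2297 and 3272 CPM in shSCR replicates 1, 2 and 3 and at 1567, 1996 and 1934 CPM in the shZdhhc17 replicates. The groups did not overlap, although the gap between shSCR replicate 1 and shZdhhc17 replicate 2 was small beside the excess of shSCR replicate 3. The log2 fold change was -0.49 ± 0.26 (SE; edgeR adjusted p = 0.505). In bulk tissue, fewer cells of a type and less RNA per cell cannot be told apart.

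Type I collagen, the main component of scar and tumour stroma, is built from 2 Col1a1 chains and 1 Col1a2 chain. Col1a1 (ENSMUSG00000001506.11) stood at 1119.9, 1650.2 and 2991 CPM in shSCR and 916, 1171 and 1069 CPM in shZdhhc17. Its means were 1920.5 ± 965 and 1052 ± 128 CPM (SD, n = 3 each), and shSCR replicate 1 lay inside the shZdhhc17 range. The log2 fold change was -0.87 ± 0.37 (SE; edgeR adjusted p = 0.435). Col1a2 (ENSMUSG00000029661.17) stood at 1036, 1269 and 2358 CPM in shSCR and 764, 925 and 896 CPM in shZdhhc17, without overlap. Its log2 fold change was -0.85 ± 0.33 (SE; edgeR adjusted p = 0.409). The partner chains moved in step across libraries: per kilobase of transcript, the ratio of Col1a1 to Col1a2 was 0.975, 1.17 and 1.14 in shSCR and 1.08, 1.14 and 1.08 in shZdhhc17, a narrower range than that of either chain alone.

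**Figure D2:**
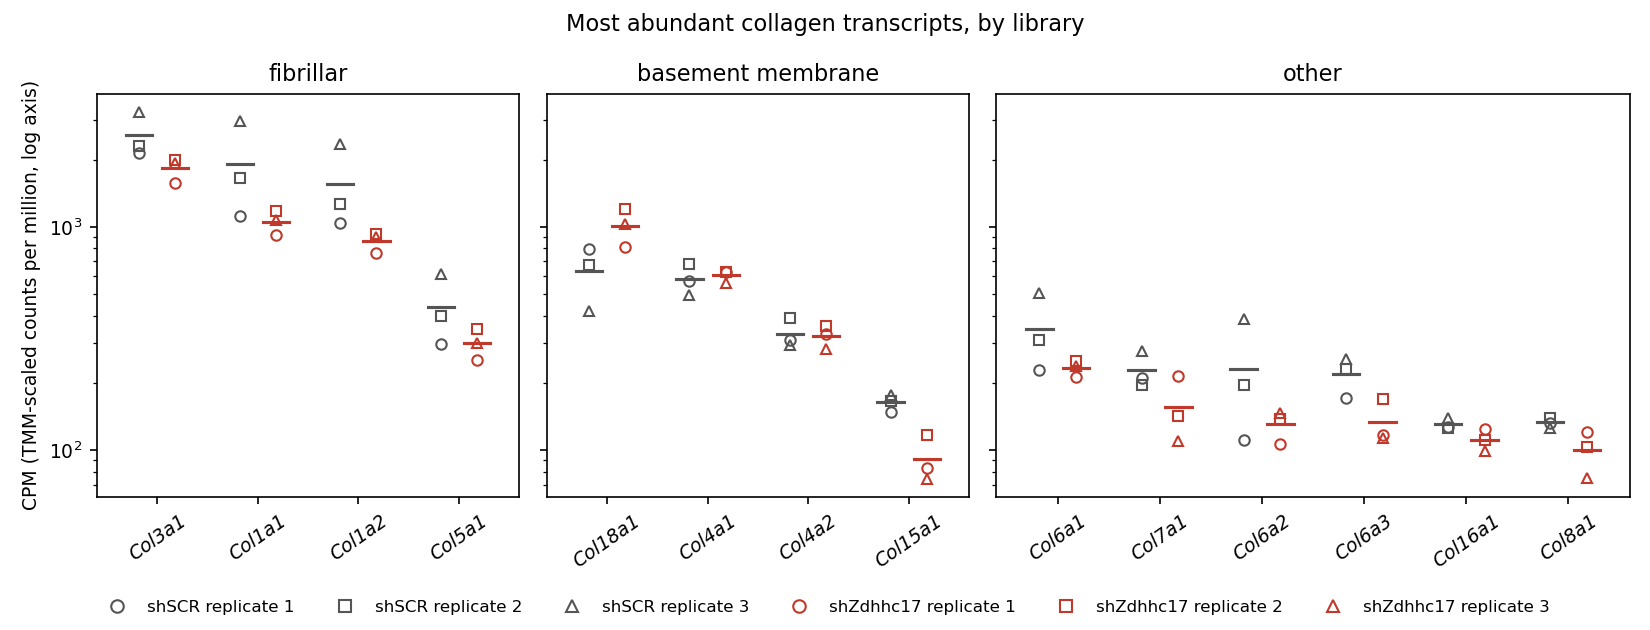
CPM on a log axis (y) of the most abundant collagen transcripts (x) in each of the 6 libraries, with a line at each group mean (n = 3); grey is shSCR, red is shZdhhc17, and the symbol gives the replicate. The triangle of shSCR replicate 3 lies highest for Col1a1, Col1a2, Col3a1, Col5a1, Col6a1, Col6a2, Col6a3, Col7a1, Col15a1 and Col16a1. It lies lowest for Col4a1 and Col18a1.

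The chains of type V, which nucleates type I fibrils, and Col27a1 overlapped between groups. Col5a1, the most abundant of them, stood at 297, 397 and 612 CPM in shSCR and 252, 348 and 300.0 CPM in shZdhhc17 (log2 fold change -0.54 ± 0.28 SE, edgeR adjusted p = 0.497). Its partner Col5a2 stood at 239.7, 225 and 344 CPM in shSCR and 228, 242 and 249 CPM in shZdhhc17 (log2 fold change -0.17 ± 0.19 SE), so that only shSCR replicate 3 lay above the rest. Col5a3 and Col27a1 had log2 fold changes of -0.45 ± 0.22 and -0.41 ± 0.19 (SE). Col5a3 was at -0.21 without shSCR replicate 3, and Col27a1 at -0.27 without shZdhhc17 replicate 1.

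Of type XI, a cartilage and tumour stroma collagen related to type V, the chains had fold changes of opposite sign. Col11a1 stood at 3.65, 2.82 and 6.97 CPM in shSCR and 11.4, 6.32 and 10.3 CPM in shZdhhc17 (log2 fold change 1.06 ± 0.38 SE, edgeR adjusted p = 0.394). It was the only fibrillar chain with a positive fold change. Col11a2 stood at 3.05, 7.10 and 6.46 CPM in shSCR and 2.95, 2.15 and 3.69 CPM in shZdhhc17 (log2 fold change -0.92 ± 0.37 SE, edgeR adjusted p = 0.418). Each chain overlapped between groups, yet the ratio of Col11a1 to Col11a2 per kilobase did not: it was 0.944, 0.313 and 0.850 in shSCR and 3.05, 2.32 and 2.21 in shZdhhc17. This pair was singled out after its values were seen, and neither chain exceeded 182 counts in a library.

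The size of the fibrillar difference rested largely on one control library. Summed over the 11 fibrillar genes, the level was 4914, 5929 and 9685 CPM in shSCR replicates 1, 2 and 3 and 3791, 4754 and 4528 CPM in the shZdhhc17 replicates. The groups did not overlap, and shSCR replicate 3 exceeded the next library by more than any other gap. The mean of the shZdhhc17 libraries was 0.637 of the shSCR mean, and 0.804 of it without shSCR replicate 3. Without that library Col1a1 had -0.40, Col1a2 -0.42, Col3a1 -0.28 and Col5a1 -0.21 on the log2 scale, and Col5a2 turned to 0.044. The fibrillar median went from -0.45 to -0.33. With the mean level of the hepatocyte markers as a covariate, Col1a1 had -0.45, Col1a2 -0.49 and Col3a1 -0.34 on the same scale. Of the tested collagens, 15 (42.9%) were highest in shSCR replicate 3, as were 28.5% of all tested genes. A further 11 (31.4%) were highest in shSCR replicate 2, as were 11.3% of all tested genes.

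**Figure D3:**
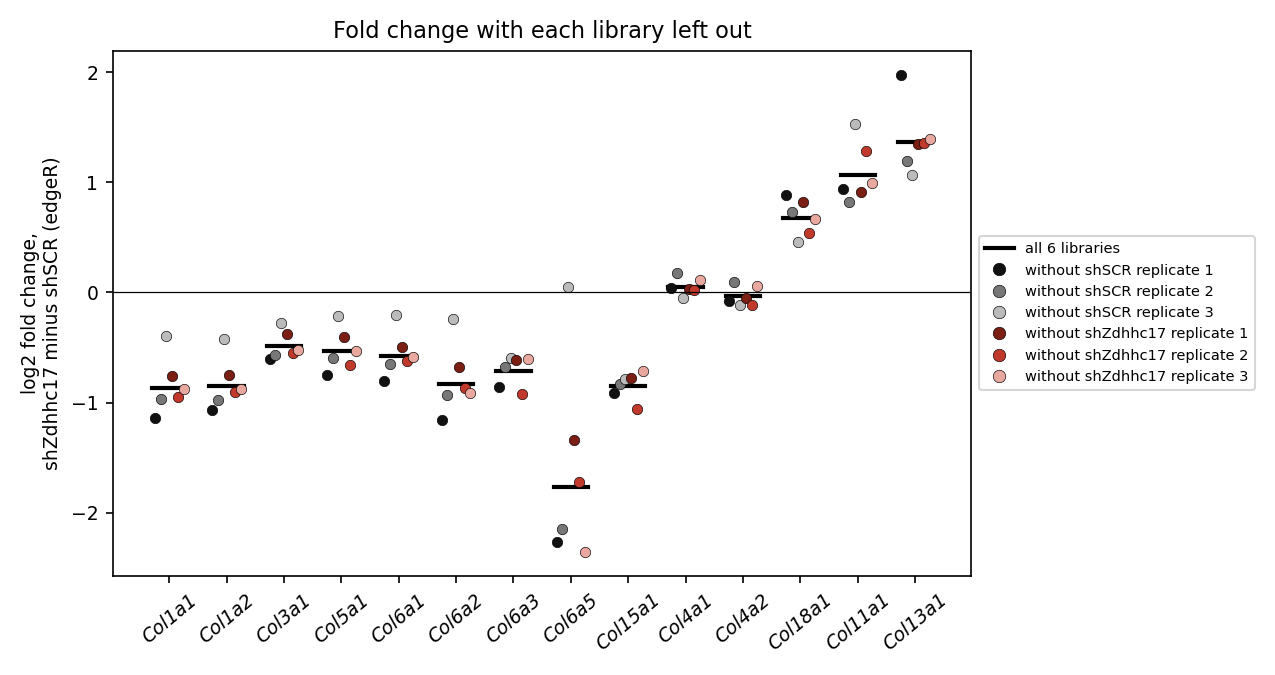
Log2 fold change of shZdhhc17 against shSCR (y axis, edgeR) for 14 collagen genes (x axis) with all 6 libraries (black bar) and with each library left out (points). Leaving out shSCR replicate 3 brings Col1a1, Col1a2, Col6a1 and Col6a2 nearer to 0 and takes Col6a5 from -1.77 to 0.048, while Col15a1 stays between -1.06 and -0.72.

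Among basement membrane chains, those of the core type IV network had means close to equal. Col4a1 stood at 574, 681 and 496 CPM in shSCR and 628, 630.2 and 559 CPM in shZdhhc17, and Col4a2, its partner in the common type IV trimer, at 311, 390.0 and 296 CPM in shSCR and 331, 359 and 283 CPM in shZdhhc17. The log2 fold changes were 0.053 ± 0.19 and -0.036 ± 0.18 (SE; edgeR adjusted p = 0.929 and 0.955), and the shZdhhc17 values lay within or close to the shSCR range. The sign of Col4a1 turned under library totals and with the hepatocyte covariate. Col4a5, a chain of a second type IV network, stood at 34.2, 36.7 and 30.9 CPM in shSCR and 34.5, 36.3 and 32.5 CPM in shZdhhc17 (log2 fold change 0.023 ± 0.13 SE). Its standard error was the smallest of the tested collagens.

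Col4a3 and Col4a4, chains of the glomerular type IV network that lie next to each other in the genome, were near the detection limit. Col4a4 had 8, 10 and 1 counts in shSCR and 16, 31 and 28 in shZdhhc17, without overlap (log2 fold change 2.18 ± 0.60 SE, edgeR adjusted p = 0.322). It passed the filter on low counts through the shZdhhc17 libraries alone, so its entry into the test depended on the higher group. Col4a3 had 3, 17 and 1 counts in shSCR and 10, 43 and 6 in shZdhhc17, with shZdhhc17 replicate 2 far above the others and overlap between groups (log2 fold change 1.67 ± 0.98 SE). Its fold change was 0.45 without shZdhhc17 replicate 2 and 3.37 without shSCR replicate 2. Col4a6 had 14 to 35 counts and a log2 fold change of -0.21 ± 0.37 (SE).

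The multiplexins Col15a1 and Col18a1, which share their domain plan, had fold changes of opposite sign. Col15a1 (ENSMUSG00000028339.18) stood at 148, 167 and 177 CPM in shSCR and 82.7, 116 and 74.3 CPM in shZdhhc17. Every shZdhhc17 library lay below every control, with means of 164 ± 14.6 and 91.1 ± 22.1 CPM (SD, n = 3 each). Its log2 fold change of -0.85 ± 0.19 (SE) had the smallest p of all collagens, with an edgeR adjusted p of 0.307. The value moved little with the choice of libraries or covariate: without shSCR replicate 3 it was -0.79 on the log2 scale, and with the hepatocyte covariate -0.85. DESeq2 called it, alone among the collagens, with a log2 fold change of -0.83 (adjusted p = 0.0195), where DESeq2 called 1.35% of all tested genes. Leaving out 1 library gave DESeq2 adjusted p-values between 7.48e-05 (shZdhhc17 replicate 2 omitted) and 0.334 (shZdhhc17 replicate 3 omitted), and the call was lost without shSCR replicate 2 or 3 or shZdhhc17 replicate 1 as well.

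Col18a1 (ENSMUSG00000001435.16), a collagen that hepatocytes are known to make in quantity, stood at 799, 677 and 421 CPM in shSCR and 810.0, 1200.3 and 1027 CPM in shZdhhc17. The groups did not overlap, but shSCR replicate 1 and shZdhhc17 replicate 1 were close. The log2 fold change was 0.68 ± 0.29 (SE; edgeR adjusted p = 0.431), 0.45 without shSCR replicate 3 and 0.45 with the hepatocyte covariate. The summed level of the 12 hepatocyte markers was 61879.6, 47169.9 and 25066 CPM in shSCR replicates 1, 2 and 3. In the shZdhhc17 replicates it was 53690.1, 72538 and 65666 CPM. This sum was lowest in shSCR replicate 3 and highest in shZdhhc17 replicates 2 and 3, as for Col18a1. Single markers did not all follow the sum: 10 had a positive log2 fold change and 2 a negative one. The negative ones, Tat (-0.59 ± 0.46 SE) and Cyp3a11 (-0.28 ± 0.65 SE), were highest in shSCR replicate 1. The part of hepatocyte RNA in the Col18a1 result was not tested. The covariate, itself lowest in shSCR replicate 3, cannot separate hepatocyte RNA from other features of that library. Per kilobase the ratio of Col18a1 to Col15a1 was 4.99, 3.76 and 2.20 in shSCR and 9.05, 9.55 and 12.8 in shZdhhc17, without overlap; this ratio was chosen after the values were seen.

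The stretches before the annotated starts of these opposed multiplexins, and of the most abundant fibrillar gene, are shown because they differ in composition. They are RefSeq sequences of build GRCm38.p6, taken from the 250 bases before the start and written 5′ to 3′ on the gene's strand, with bases inside annotated exons left out. Capitals mark the CCAAT box (CCAAT), the GC box (GGGCGG) and the TATA box (TATAAA), searched on both strands. No match overlaps another in these windows.
Col3a1 (chr1:45311288-45311537, plus strand): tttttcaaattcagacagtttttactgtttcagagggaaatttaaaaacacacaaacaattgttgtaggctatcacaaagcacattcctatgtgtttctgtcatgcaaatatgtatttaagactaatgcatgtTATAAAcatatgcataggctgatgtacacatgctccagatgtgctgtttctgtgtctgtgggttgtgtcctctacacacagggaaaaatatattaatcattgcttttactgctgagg
Col15a1 (chr4:47207762-47208011, plus strand): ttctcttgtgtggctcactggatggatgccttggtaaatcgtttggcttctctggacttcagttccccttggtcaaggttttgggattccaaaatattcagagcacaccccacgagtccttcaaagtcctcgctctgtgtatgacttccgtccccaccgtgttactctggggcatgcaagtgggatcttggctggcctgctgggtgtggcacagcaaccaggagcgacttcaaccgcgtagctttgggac
Col18a1 (chr10:77166549-77166780, minus strand): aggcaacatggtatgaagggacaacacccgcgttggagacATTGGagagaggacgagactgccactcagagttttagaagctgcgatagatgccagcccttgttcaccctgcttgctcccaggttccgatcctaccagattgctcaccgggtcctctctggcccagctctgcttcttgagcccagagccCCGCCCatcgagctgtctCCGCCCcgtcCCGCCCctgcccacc
The Col18a1 window shown held 3 GC boxes and 1 CCAAT box, and the Col15a1 window none of the 3 motifs. The Col3a1 window held 1 TATA box match, which begins 117 bases before the annotated start. GC content of the full windows was 62.0% for Col18a1, 53.6% for Col15a1 and 35.2% for Col3a1. Over the 36 windows found for 33 of the 41 collagen genes, 61.1% held a GC box, 36.1% a CCAAT box and 11.1% a TATA box. The shares over all 32851 windows of the same length were 32.7%, 33.8% and 12.4%. Col18a1 has a second annotated start, whose window, 241 of its 250 bases exonic and so not shown, held none of the 3 motifs at 57.6% GC, and the gene counts do not tell which start its reads came from. Any link between the composition of these windows and the fold changes was not tested.

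Type VI collagen, which forms beaded microfibrils between cells and fibres, also had lower means for its main chains. Its trimer joins Col6a1 and Col6a2 with Col6a3 or one of the later chains. Col6a1 stood at 228, 311 and 505 CPM in shSCR and 212, 249 and 238 CPM in shZdhhc17 (log2 fold change -0.58 ± 0.29 SE, edgeR adjusted p = 0.485). Col6a2, its neighbour in the genome, stood at 111, 196 and 385 CPM in shSCR and 106, 138 and 146 CPM in shZdhhc17 (log2 fold change -0.83 ± 0.41 SE, edgeR adjusted p = 0.485). For both, shSCR replicate 1 lay among the shZdhhc17 libraries and shSCR replicate 3 far above, and without the latter the log2 fold changes were -0.21 and -0.24.

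Col6a3, the chain that completes the common trimer, did not overlap between groups. It stood at 171, 230.3 and 255 CPM in shSCR and 117, 170.0 and 113 CPM in shZdhhc17, with shZdhhc17 replicate 2 just below shSCR replicate 1. The log2 fold change was -0.71 ± 0.22 (SE; edgeR adjusted p = 0.362) and -0.59 without shSCR replicate 3. Col6a5, an alternative to Col6a3 in the trimer, stood at 10.1, 23.5 and 145 CPM in shSCR and 6.78, 16.3 and 29.2 CPM in shZdhhc17. Its log2 fold change of -1.77 ± 0.96 (SE) rested on shSCR replicate 3, without which it was 0.048. Col6a6, the adjacent gene and a further alternative chain, was higher in each shZdhhc17 library, with 0.980, 1.72 and 1.62 CPM in shSCR and 2.07, 2.62 and 3.89 CPM in shZdhhc17 (log2 fold change 0.98 ± 0.36 SE, edgeR adjusted p = 0.397), on 18 to 59 counts.

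**Figure D4:**
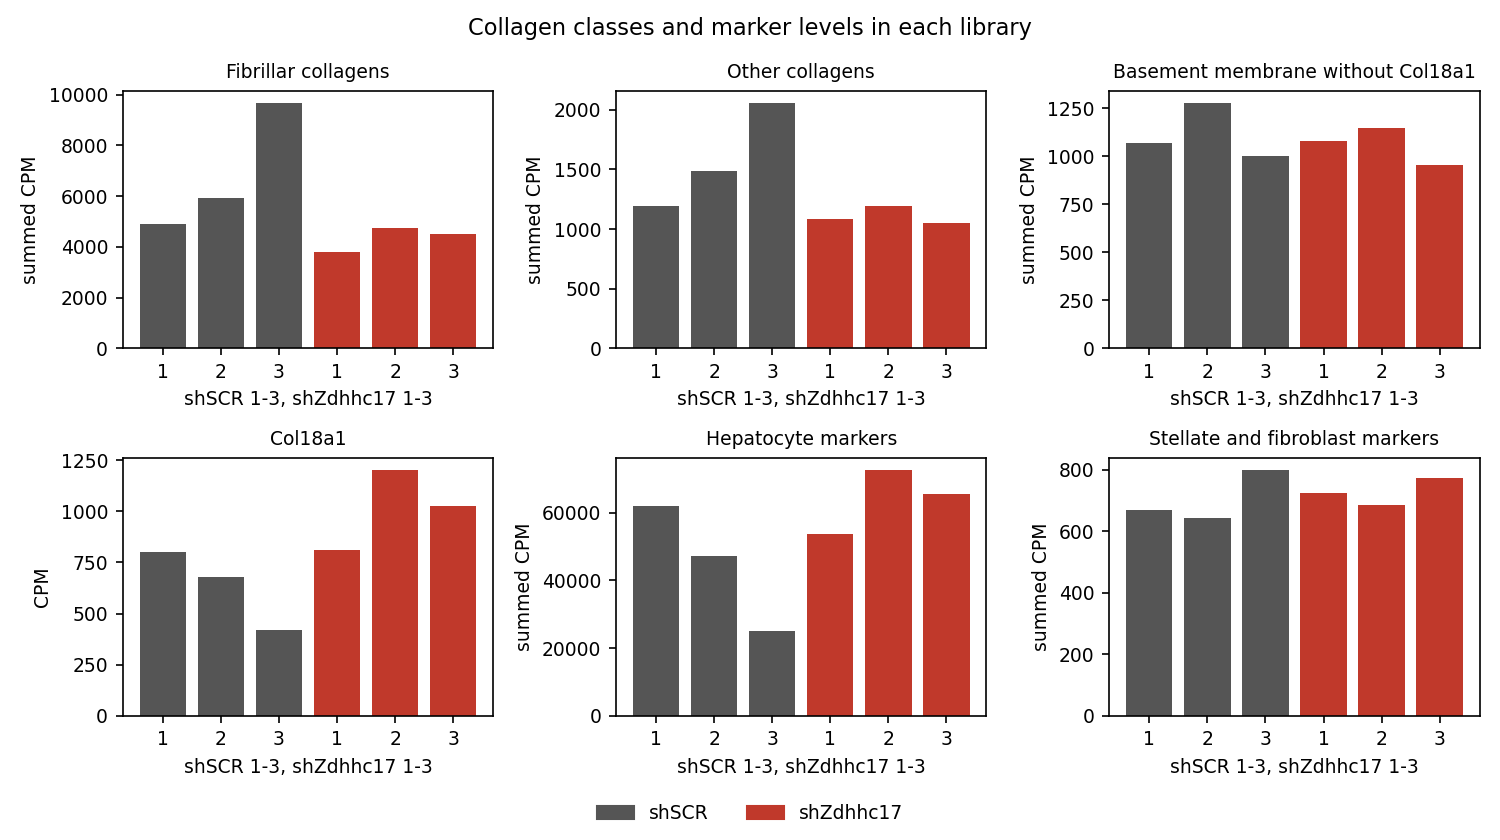
Bars give, for each library (x axis, grey shSCR and red shZdhhc17), the summed CPM of the fibrillar, other and remaining basement membrane collagens, the CPM of Col18a1, and the summed CPM of 12 hepatocyte and 15 stellate cell and fibroblast markers (y axes from 0). The fibrillar and other sums peak in shSCR replicate 3, where Col18a1 and the hepatocyte markers are lowest.

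The tested fibril-associated collagens, which coat fibrils without forming them, had negative log2 fold changes except for Col14a1. Col20a1 stood at 8.27, 10.0 and 12.0 CPM in shSCR and 5.78, 6.86 and 6.78 CPM in shZdhhc17, lower in each shZdhhc17 library (log2 fold change -0.64 ± 0.20 SE, edgeR adjusted p = 0.364). Col16a1 likewise did not overlap, at 127, 126 and 139 CPM in shSCR and 124, 111 and 99.3 CPM in shZdhhc17, by a margin of a few CPM (log2 fold change -0.23 ± 0.13 SE, edgeR adjusted p = 0.519). Col12a1 overlapped (log2 fold change -0.49 ± 0.26 SE, and -0.27 without shSCR replicate 2). Col14a1, a close relative of Col12a1, had a positive value, with 103, 94.4 and 82.2 CPM in shSCR and 89.0, 137 and 155 CPM in shZdhhc17 and overlap from shZdhhc17 replicate 1 (log2 fold change 0.44 ± 0.22 SE, edgeR adjusted p = 0.474). Col9a3 had a log2 fold change of -1.38 ± 0.67 (SE) on 9, 33 and 61 counts in shSCR and 16, 9 and 9 in shZdhhc17. It was highest in shSCR replicate 3, without which it had -0.64, and -0.53 with the hepatocyte covariate. Without shZdhhc17 replicate 3 Col16a1 was at -0.15 and Col14a1 at 0.28 on the log2 scale.

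The collagens of anchoring structures and of the cell surface named next also had negative values, except for Col13a1. Col7a1, which forms the anchoring fibrils under epithelia, stood at 211, 196 and 279 CPM in shSCR and 215, 142 and 109.9 CPM in shZdhhc17 (log2 fold change -0.55 ± 0.27 SE, edgeR adjusted p = 0.471); shZdhhc17 replicate 1 lay within the control range and the other shZdhhc17 libraries below it. The log2 value of Col7a1 was -0.85 without shZdhhc17 replicate 1 and -0.35 without shZdhhc17 replicate 3. Col8a1, a short-chain network collagen of vessel walls, stood at 133, 139.7 and 126 CPM in shSCR and 120.2, 104 and 75.2 CPM in shZdhhc17, without overlap (log2 fold change -0.41 ± 0.18 SE, edgeR adjusted p = 0.443, and -0.24 without shZdhhc17 replicate 3). The transmembrane collagen Col13a1, found at cell adhesion sites, stood at 2.94, 1.31 and 0.947 CPM in shSCR and 4.58, 4.53 and 4.28 CPM in shZdhhc17 (log2 fold change 1.36 ± 0.41 SE, edgeR adjusted p = 0.351). The shZdhhc17 libraries were nearly equal and all above the controls, among which shSCR replicate 1 was highest. The hemidesmosome collagen Col17a1 (log2 fold change -0.60 ± 0.44 SE) and the transmembrane Col23a1 (log2 fold change -0.63 ± 0.47 SE) had at most 39 and 20 counts in a library and overlapped, with ranges of -0.94 to -0.36 and -1.10 to -0.29 when a library was left out.

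The remaining genes had low counts. The 6 genes that did not pass the filter were Col6a4 (2 to 7 counts per library), Col9a1 (1 to 8), Col9a2 (0 to 4), Col22a1 (0 to 2), Col25a1 (2 to 7) and Col28a1 (3 to 11), all of them in the class of other collagens. Among tested genes Col2a1, the cartilage fibril collagen, had 3 to 17 counts (log2 fold change -0.32 ± 0.54 SE), Col24a1 10 to 31 (log2 fold change -0.27 ± 0.46 SE) and Col8a2 7 to 33 (log2 fold change 0.57 ± 0.58 SE). The groups overlapped for these 3 genes, and leaving out a library turned the sign of Col2a1 and Col24a1 and gave Col8a2 values of 0.15 to 1.03. With a mean of at least 1 CPM over the 6 libraries, 31 collagens remained, 23 of them with a negative value and a median of -0.45, against 0.0057 for all such genes.

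By class, 10 of 11 fibrillar, 3 of 8 basement membrane and 12 of 16 tested other collagens had a negative log2 fold change, with medians of -0.45, 0.038 and -0.57. The basement membrane median changed sign under library totals, with the hepatocyte covariate and without shSCR replicate 3. Collagen RNA took 0.764, 1.01 and 1.46% of all counts in shSCR replicates 1, 2 and 3 and 0.681, 0.763 and 0.715% in the shZdhhc17 replicates. The shares of shSCR replicate 1 and shZdhhc17 replicate 2 were nearly equal. Type I and III chains together made up 54.0, 55.6 and 65.5% of collagen CPM in shSCR and 48.0, 49.3 and 51.6% in shZdhhc17, so this share was lower in each shZdhhc17 library than in each control. The collagen total includes Col18a1, which was higher in each shZdhhc17 library, so the share depends in part on that gene. The other collagens summed to 1195, 1489.7 and 2059 CPM in shSCR and 1087, 1195 and 1053 CPM in shZdhhc17, with shSCR replicate 1 and shZdhhc17 replicate 2 nearly equal and shSCR replicate 3 highest. The basement membrane sum without Col18a1 was 1069, 1277 and 1001 CPM in shSCR and 1079, 1147 and 952 CPM in shZdhhc17, with overlap.

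Set against transcript length, the order of mean levels over the 6 libraries was led by fibrillar chains. In CPM per kilobase of the longest annotated coding transcript, Col3a1 was at 396, Col1a1 at 251 and Col1a2 at 226. Basement membrane and type VI chains came next, with Col18a1 at 147, Col4a1 at 89.9, Col6a1 at 70.8 and Col4a2 at 50.9. Col5a1 (43.8), Col6a2 (38.8) and Col5a2 (38.4) stood close together on this scale. In the shZdhhc17 mean Col18a1 stood at 181 CPM per kilobase, beside 177 for Col1a1 and 161 for Col1a2, whereas in the shSCR mean it stood at 113 beside 324 and 291. From shSCR replicates 1 and 2 alone these levels were 132, 234 and 215 CPM per kilobase. The ratio of Col4a1 to Col4a2 per kilobase was 1.80, 1.70 and 1.63 in shSCR and 1.85, 1.71 and 1.93 in shZdhhc17, with overlap. Of the 6 pairs of adjacent collagen genes with both members tested, Col3a1 and Col5a2, Col6a1 and Col6a2, and Col4a3 and Col4a4 had log2 fold changes of the same sign. Col4a1 and Col4a2, Col4a5 and Col4a6, and Col6a5 and Col6a6 had opposite signs. These opposite signs are not firm, since Col4a1, Col4a2, Col4a5, Col4a6 and Col6a5 each changed sign when a library was left out. Without shSCR replicate 3 Col6a5 was at 0.048 and Col6a6 at 1.07, so both were positive. Among the same-sign pairs Col5a2 also changed sign without that library.

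Most genes that process collagen had negative fold changes. Of 33 tested genes for collagen modification, folding, trimming and cross-linking, 26 had a negative and 7 a positive log2 fold change, with a median of -0.29, where 49.7% of all tested genes were negative. Without shSCR replicate 3, in which the list's summed level was highest, 24 were negative and the median was -0.11. None passed the threshold, and 6 had an unadjusted p under 0.05, all lower, as had 6.71% of all tested genes. P4ha1 and P4ha2, catalytic subunits of the prolyl hydroxylase that stabilizes the triple helix, had log2 fold changes of -0.81 ± 0.15 and -0.77 ± 0.13 (SE; edgeR adjusted p = 0.307 for both). P4ha2 stood at 68.5, 72.9 and 72.1 CPM in shSCR and 41.3, 47.6 and 36.5 CPM in shZdhhc17, with controls alike and no overlap. Plod2, the lysyl hydroxylase for cross-linking of fibril ends, stood at -0.65 ± 0.16 (SE; edgeR adjusted p = 0.307) on the log2 fold change scale, and P4hb, the shared subunit and most abundant gene of the list, at 0.043 ± 0.20 (SE). P4ha1 and Plod2 were highest in shSCR replicate 3 and P4ha2 in shSCR replicate 2, and without replicate 3 they had -0.73, -0.54 and -0.76 on the log2 scale.

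Partners, receptors and degrading enzymes showed no common direction. Of 13 collagen-binding matrix genes 6 had a negative log2 fold change (median 0.014), with -0.95 ± 0.39 for Postn, -0.46 ± 0.19 for Lama4, 0.30 ± 0.17 for Dcn and 0.52 ± 0.30 for Fn1, the most abundant (SE). Postn was highest in shSCR replicate 3 and had -0.30 without it, and Lama4 had -0.28 without shZdhhc17 replicate 1. Of 11 tested receptor and uptake genes 6 were negative (median -0.00094). Itga11, the fibroblast integrin subunit for fibrillar collagen, stood at 2.23, 5.17 and 3.40 CPM in shSCR and 0.440, 1.55 and 0.856 CPM in shZdhhc17 (log2 fold change -1.91 ± 0.50 SE, edgeR adjusted p = 0.313), while Adgrg1, a receptor for type III collagen, had a log2 fold change of 0.82 ± 0.18 and the uptake receptor Mrc1 0.61 ± 0.16 (SE). Itgb1, the shared integrin chain, had a log2 fold change of 0.091 ± 0.20 (SE). Of 9 degradation genes 5 were negative (median -0.13): the collagenases Mmp13 and Mmp8 had log2 fold changes of -1.17 ± 0.31 and 2.06 ± 0.58 (SE), on opposite sides, Timp3 had -0.30 ± 0.21, and Mmp14, the most abundant, 0.038 ± 0.16 (SE). Without shSCR replicate 3 Timp3 had -0.14, and the median of the degradation genes was 0.11. None of these genes passed the threshold.

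The 7 lists of cell type markers were read beside these levels. The 15 stellate cell and fibroblast markers, none at 0, summed to 642 to 798 CPM in shSCR and 685 to 774 CPM in shZdhhc17, with overlap, and 7 of them had a negative value (median 0.098). On the log2 scale these included -1.08 ± 0.23 for Dpt, -0.57 ± 0.15 for Pdgfrb, 0.99 ± 0.27 for Reln and 0.098 ± 0.24 for Tagln, the most abundant (SE). Endothelial markers summed to 575 to 669 CPM in shSCR and 568 to 764 CPM in shZdhhc17, 8 of 12 positive, with log2 fold changes of 0.54 ± 0.17 for Plvap, -0.43 ± 0.20 for Pecam1, 0.78 ± 0.38 for Clec4g and -0.028 ± 0.20 for Eng, the most abundant (SE). Carcinoma epithelial markers, whose RNA these libraries cannot assign to tumour or host cells, summed to 2336 to 3441 and 1849 to 3373 CPM. Of these, 9 of 11 were negative, with log2 fold changes of -0.51 ± 0.17 for Itgb4, -0.92 ± 0.34 for Krt19, -0.80 ± 0.30 for Cdh1 and -0.28 ± 0.28 for Krt18, the most abundant (SE). Of the hepatocyte markers 10 of 12 were positive, with log2 fold changes of 0.62 ± 0.29 for Apoa1, 0.82 ± 0.38 for Hpx, 0.70 ± 0.36 for Ahsg and 0.37 ± 0.46 for Alb, the most abundant (SE). Mesothelial markers, of cells on the liver surface, summed to 60.4 to 107 and 85.9 to 147 CPM, 7 of 8 positive, with log2 fold changes of 4.08 ± 0.57 for Gata5, 3.28 ± 0.54 for Lrrn4, 3.33 ± 0.78 for Muc16 and 0.28 ± 0.38 for Msln, the most abundant (SE). Macrophage markers summed to 951 to 1264 and 999.8 to 1266 CPM, 4 of 8 positive, with log2 fold changes of 0.90 ± 0.48 for Vsig4, 0.78 ± 0.44 for Clec4f, 0.50 ± 0.29 for Adgre1 and -0.20 ± 0.19 for C1qa, the most abundant (SE). Neutrophil markers summed to 106 to 332 and 409.8 to 946 CPM, 9 of 10 positive, with log2 fold changes of 2.18 ± 0.62 for S100a8, 3.52 ± 1.00 for Elane, 1.80 ± 0.52 for S100a9 (SE), S100a9 being the most abundant. Gata5 passed the filter on low counts through the shZdhhc17 libraries alone, so its entry into the test depended on the higher group. The count of positive mesothelial markers and their median include it. Gata5 rests on 0.163, 0.104 and 0.0557 CPM in shSCR and 2.32, 1.01 and 2.50 CPM in shZdhhc17, so its fold change depends on very few control counts. The same limit holds for Muc16, at 1.25, 0.261 and 0.0557 CPM in shSCR, and Lrrn4, at 1.14, 0.522 and 0.223 CPM. The neutrophil and mesothelial lists had log2 medians of 2.05 and 2.76. Without shSCR replicate 3 the median of the hepatocyte markers was 0.058, against 0.37 with it, and Cdh1, Pecam1, Clec4g, Ahsg, Alb, Vsig4 and Clec4f had -0.39, -0.23, 0.45, 0.43, 0.037, 0.48 and 0.41. Without shSCR replicate 2 Elane had 5.37, and without shZdhhc17 replicate 3 Adgre1 had 0.30. No marker of these 7 lists was at 0 in any library or passed the threshold, and the part of these cell types in the collagen levels was not tested.

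The authors' deposited table listed all 41 collagen genes and gave a q under 0.05 for 1 of them, Col15a1, with a log2 fold change of -0.83 and a q of 0.0241; 0.844% of all its genes had such a q. In the authors' deposited table Col4a4 had 2.21 (q = 0.0664), Col13a1 1.38 (q = 0.0808), Col6a3 -0.69 (q = 0.144) and Col1a2 -0.83 (q = 0.167).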

How the data were processed

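Gene counts were deposited by the authors as raw whole-number counts for 24167 genes in 6 libraries, without normalization. Per the labels' protocols the libraries were stranded and poly-A selected; per the submitters' processing notes, which give no roles, the tools were STAR 2.6.1, DESeq2 1.34.0, HTSeq and FastQC 0.11.8, and the build GRCm39. No source used here gives the strand setting of the counting. The authors also deposited DESeq2 log2 fold changes with p-values and q-values.

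Groups were taken from sample titles. The test was edgeR 4.0.16 (robust quasi-likelihood, two-sided, Benjamini-Hochberg adjustment, 4 residual degrees of freedom) with TMM and filterByExpr, which left 15567 genes; CPM use the TMM library sizes. Standard errors derive from the fold change and F statistic. DESeq2 1.42.0 and limma 3.58.1 (voom) under R 4.3.3, other scalings and filters, a replicate block, a hepatocyte covariate and leaving out each library were alternatives. The code was tested on simulated data. Depth ran from 15832837 to 19186615 counts; the spread between libraries, not counting error, sets the precision of abundant genes.

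Transcript lengths came from GENCODE vM21 and promoter windows and gene neighbours from RefSeq, both on GRCm38, another build than the files use; all 41 genes had a length. Members and lists were chosen with earlier results of these data known. Named are members with an unadjusted p under 0.05 or groups without overlap, the most abundant of each class, their chain partners, low-count members, and per list the 3 genes of smallest p and the most abundant.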

Additional observations from a re-analysis of the deposited data

How the results depend on the processing

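The number of genes called over the table was 0 in the test as reported, 3 without a filter on low counts, 3 with the hepatocyte covariate, 210 with DESeq2 (95 higher and 115 lower) and 0 to 1 with a library left out, the 1 without shSCR replicate 3. Collagen calls were 0 under each of these except DESeq2, with 1, Col15a1. In fits added after seeing the data, DESeq2 was run with a library left out. It called 34 of 16090 tested genes without shZdhhc17 replicate 3 and 98 of 15892 without shZdhhc17 replicate 2. Without shSCR replicates 3 and 2 it called 105 of 15983 and 117 of 15789. Without shZdhhc17 replicate 1 it called 371 of 16069, and without shSCR replicate 1 it called 705 of 15874. Between 0 and 9 collagens were called. The 9 without shSCR replicate 1 were Col1a1, Col1a2, Col6a1, Col6a2, Col6a3, Col9a3, Col11a2, Col13a1 and Col15a1. There were 2 without shZdhhc17 replicate 1 (Col7a1 and Col14a1) and 2 without shZdhhc17 replicate 2 (Col6a3 and Col15a1). There was 1 without shSCR replicate 3 (Col11a1), and 0 in the others. The fibrillar median ran from -0.60 to -0.33 with a library left out, the basement membrane median from -0.048 to 0.14, and the median of the other collagens from -0.65 to -0.32; the last was -0.70 with library totals and -0.33 with the hepatocyte covariate. Of 280 refitted values of single collagens under the other settings, 5 changed sign: Col4a1 to -0.075 with library totals and -0.013 with the covariate, Col4a5 to -0.11 and -0.027, and Col6a5 to 0.050 with the covariate. With a library left out, signs changed within these ranges: Col2a1 -0.68 to 0.053, Col4a1 -0.053 to 0.18, Col4a2 -0.11 to 0.095, Col4a5 -0.042 to 0.082, Col4a6 -0.45 to 0.022, Col5a2 -0.28 to 0.044, Col6a5 -2.36 to 0.048 and Col24a1 -0.62 to 0.13. The cause was not tested. With the replicate number as a block, 0 genes passed, and the class medians were -0.43, 0.044 and -0.52 in the order fibrillar, basement membrane and other. Same-numbered libraries shared only a number: the correlations of their deviations from the group means were -0.059, 0.32 and -0.046 for numbers 1, 2 and 3, and not every library correlated best with its own number.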
